A study of Mus musculus with 2 samples.

Results

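The 37 genes described here are induced by interferons, and they were chosen by symbol: a row of the deposited matrix belonged to the set when its gene name equalled a listed symbol. All 37 listed symbols were found among the 31053 genes of the matrix, each as a single row. They were grouped by role into 4 nucleic acid sensors (Ifih1, Ddx58, Zbp1, Ifi204), 4 genes of interferon signalling and its control (Stat2, Irf7, Usp18, Oasl1), 19 antiviral effectors and 10 interferon-inducible GTPases (Gbp2, Gbp3, Gbp4, Gbp5, Gbp7, Irgm1, Irgm2, Igtp, Iigp1, Ifi47). The study injected B16F10 cells, a mouse melanoma line, into wild-type mice (LysM-cre x Rel+/+) and into mice lacking Rel in myeloid cells (genotype LysM-cre x RelloxP/loxP), to ask what c-Rel, an NF-kB family transcription factor, does in the development of myeloid-derived suppressor cells in the tumour. Both genotypes carry the Cre recombinase, which the LysM promoter drives in myeloid cells. At 2 weeks, viable cells sorted for CD45, the surface protein of white blood cells, were pooled from 5 tumours of each genotype and sequenced as 1 droplet 3′ library per genotype. Age and sex of the mice are not given in the labels.

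The barcodes carry a library ending, 1 or 2, that neither the labels nor the files tie to a genotype. The libraries are therefore named library 1 and library 2, their values stand side by side, and no effect of the deletion is read from them. Rel, the deleted gene, stood at 125 CPM (the usual unit for UMIs, unique molecular identifiers, scaled by the total of a class) in the macrophages of library 1 and at 27.4 CPM in those of library 2. It stood at 322 and 101 CPM in monocytes, 110 and 88.0 CPM in neutrophils, 534 and 298 CPM in dendritic cells, 141 and 154 CPM in T cells, 57.2 and 54.5 CPM in NK cells and 593 and 140 CPM (73 and 2 UMIs) in B cells. With 1 library per genotype there is no replicate and no test, and the 95% intervals given below cover counting error only.

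Library 1 held 7688 barcodes with 49129318 UMIs and library 2 held 10564 barcodes with 73507228 UMIs. After filters, and after 1991 and 1529 barcodes that copied a much deeper barcode of the other library were left out, 5198 and 7999 barcodes were kept, and 89.5% and 91.3% of them fell into 1 of 9 classes set by marker UMIs. Despite the sort, the largest class was melanoma, with 2198 and 5191 barcodes (median 17868 and 11808 UMIs) and the 5 white blood cell markers at 0.468% and 0.589% of their highest class. The other classes were macrophages (473 and 691 barcodes), monocytes (639 and 745), neutrophils (133 and 67), conventional dendritic cells (61 and 59), plasmacytoid dendritic cells (43 and 27), T cells (742 and 437), NK cells (216 and 68) and B cells (145 and 15). Each name stands for barcodes that carry that class's markers. All 7 melanoma markers were also found in macrophages, at a summed 334 and 844 CPM against 11385 and 10861 CPM in melanoma barcodes. T cells carried them at 322 and 799 CPM. The part of such melanoma RNA in the results was not tested beyond 1 alternative that subtracts it. The libraries shared 3609 barcode sequences, and with the copies kept 21 of 22 counts of called genes moved by no more than 1.5 times.

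Interferons are secreted proteins that put cells into an antiviral and inflammatory state. Type I interferons (alpha and beta) act through a receptor whose signal leads to binding of the interferon-stimulated response element, a promoter sequence. Type II interferon (gamma), made mainly by T and NK cells, acts through another receptor, whose signal leads to binding of the gamma-activated site. Ifit genes, Isg15, Rsad2 and Mx1 are textbook type I targets, while the guanylate-binding proteins (Gbp) and the immunity-related GTPases (Irgm1, Irgm2, Igtp, Iigp1, Ifi47), which attack vacuoles of intracellular parasites and bacteria, respond strongly to interferon gamma. In tumours, the response is known for its ties to antigen presentation and T cell recruitment.

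Promoter sequence is shown because it is the part of these genes that receives the signal. A RefSeq window (GRCm38.p6, 250 bases before to 50 after a transcript start) was found for 29 of the 37 genes. The core of the interferon-stimulated response element, 2 copies of GAAA separated by any 2 bases, on either strand, was present in windows of 18 of the 29 (62.1%), beside 3.99% of all 27025 symbols with a window. The core of the gamma-activated site, TTCNNNGAA, which reads the same on both strands, was present in 9 of the 29 (31.0%), beside 9.55% of all symbols. Both cores were present in 5 of the 29 (17.2%), beside 0.614% of all symbols, and 7 had neither. The following stretches upstream of the start are written 5′ to 3′ on the strand of the gene with the cores in capitals, where overlapping matches run together, and were picked to show 2 effectors with the response element alone, 3 GTPases and 1 effector with both cores and 1 effector with the gamma-activated core alone.
Rsad2 (chr12:26456453-26456612, minus strand): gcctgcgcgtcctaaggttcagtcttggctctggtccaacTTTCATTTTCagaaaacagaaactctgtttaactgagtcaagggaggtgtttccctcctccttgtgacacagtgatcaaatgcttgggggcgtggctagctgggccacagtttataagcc
Ifit1 (chr19:34640711-34640870, plus strand): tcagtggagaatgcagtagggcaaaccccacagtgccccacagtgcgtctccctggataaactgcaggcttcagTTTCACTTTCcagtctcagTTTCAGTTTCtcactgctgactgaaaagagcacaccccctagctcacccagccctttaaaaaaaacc
Gbp7 (chr3:142530176-142530335, plus strand): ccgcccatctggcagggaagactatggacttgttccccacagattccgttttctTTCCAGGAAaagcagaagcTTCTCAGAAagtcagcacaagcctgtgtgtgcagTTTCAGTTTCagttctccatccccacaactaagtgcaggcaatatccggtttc
Igtp (chr11:58199396-58199555, plus strand): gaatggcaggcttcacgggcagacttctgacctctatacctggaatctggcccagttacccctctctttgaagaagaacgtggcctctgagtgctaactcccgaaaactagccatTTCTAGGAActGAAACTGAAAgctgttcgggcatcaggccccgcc
Irgm2 (chr11:58214817-58214976, plus strand): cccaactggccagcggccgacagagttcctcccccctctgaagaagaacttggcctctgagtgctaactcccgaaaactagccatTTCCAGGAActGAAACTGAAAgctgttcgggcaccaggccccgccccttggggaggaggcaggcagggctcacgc
Bst2 (chr8:71537473-71537632, minus strand): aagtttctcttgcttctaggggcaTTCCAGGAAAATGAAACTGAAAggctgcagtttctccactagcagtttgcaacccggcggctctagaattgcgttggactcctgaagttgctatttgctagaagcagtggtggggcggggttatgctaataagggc
Samhd1 (chr2:157135266-157135346, minus strand): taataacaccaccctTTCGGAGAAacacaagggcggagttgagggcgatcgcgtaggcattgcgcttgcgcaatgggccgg

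Rsad2 (viperin, an enzyme that makes a chain-terminating nucleotide against viral polymerases) and Ifit1 (a protein that binds viral RNA) held the response element core without the gamma-activated core. Among the 8 GTPases with a window, 7 held the response element core and 4 the gamma-activated core, and the window of Ifi47 held neither. In Igtp the gamma-activated core starts at position -45 and the response element core at -34, where -1 is the base before the transcript start. In Irgm2, its neighbour on chromosome 11, they start at -75 and -64. In Bst2 (tetherin, a membrane protein that holds budding viruses on the cell) the gamma-activated core starts at -136 and overlaps a response element core. Of the 16 antiviral effectors with a window, 8 held the response element core and 5 the gamma-activated core. A match describes letters in a window and shows neither binding nor a cause of the levels below.

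Among the 4 classes with over 400 barcodes in both libraries (melanoma, macrophages, monocytes and T cells), melanoma barcodes had the lowest level of 30 of the 37 genes in both libraries. Monocytes had the highest level of 14 genes in both libraries, macrophages of 8 and T cells of 2. The 14 were Zbp1, Ifi204, Irf7, Oas3, Mx1, Samhd1, Trim30a, Parp14, Ifi35, Gbp2, Gbp3, Gbp5, Irgm1 and Ifi47. The 8 were Oasl1, Ifit1, Ifit2, Ifit3, Rsad2, Cmpk2, Bst2 and Iigp1, and T cells led for Gbp4 and Igtp. The genes therefore did not rank the classes alike, and the GTPases were split, with 5 highest in monocytes, 1 in macrophages and 2 in T cells. These orders compare levels only, and neighbours in an order often differed by less than their counting intervals. T cells were the lowest of the 4 classes for Rsad2, Cmpk2 and Bst2 in both libraries.

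**Figure D1:**
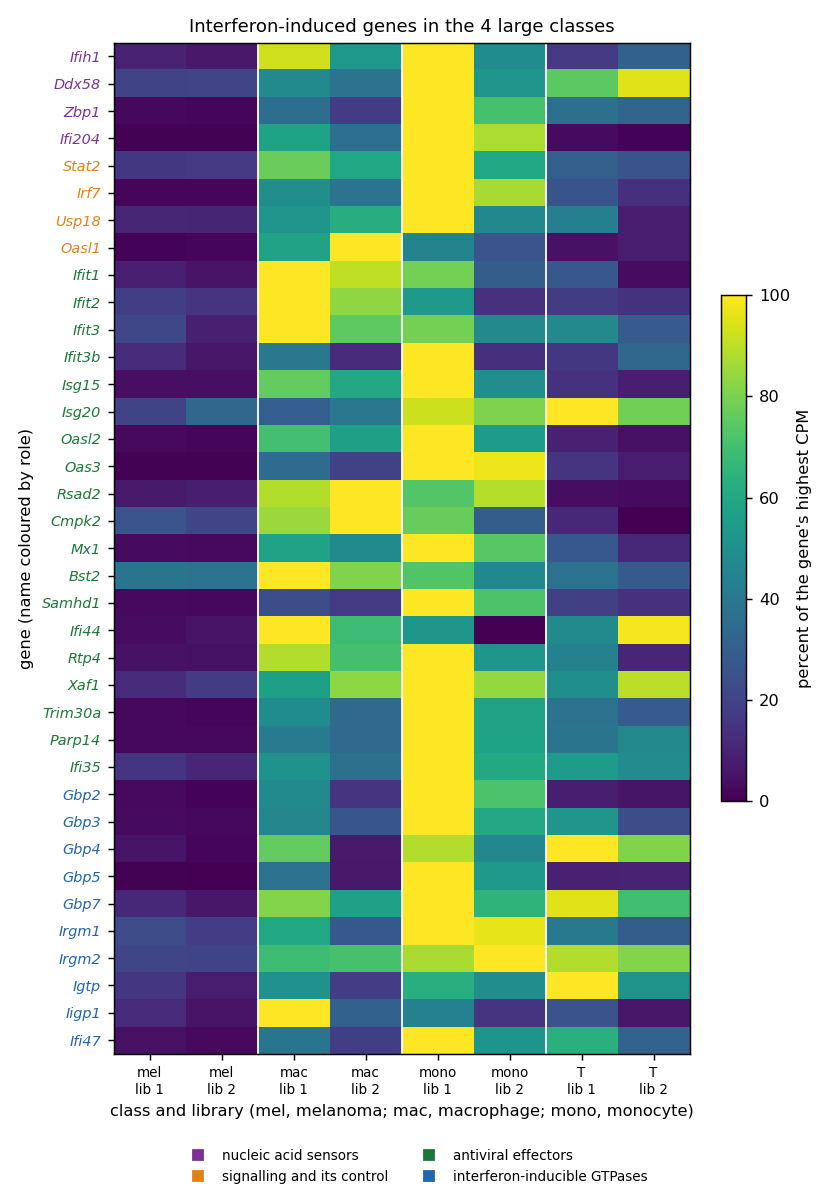
Level of each of the 37 genes in the 4 large classes of both libraries, as a percentage of that gene's own highest CPM, so that rows cannot be compared in absolute level. Names are coloured by role. Melanoma columns are darkest for 30 genes, monocytes are brightest in both libraries for 14 and macrophages for 8.

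The summed level of the 37 genes was 249 CPM (244 to 254) and 204 CPM (200.3 to 207) in melanoma barcodes of library 1 and library 2. It was 2160 and 1469 CPM in macrophages, 3762 and 2613 CPM in monocytes, and 1095 and 812 CPM in T cells. Library 1 was the higher in each of these 4 classes. By role, the 19 antiviral effectors summed to 1045 and 894 CPM in macrophages, and the 10 GTPases to 710 CPM (673 to 748) in library 1 but 275 CPM (252 to 299.5) in library 2.

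Nucleic acid sensors start the interferon response from foreign or misplaced nucleic acid. Ifi204, a DNA sensor of the Ifi200 cluster, stood at 1.68 and 1.12 CPM in melanoma barcodes, 159 and 100 CPM in macrophages, 274 and 240 CPM in monocytes, and 8.04 and 3.02 CPM in T cells. It was thus high in both mononuclear phagocyte classes and low in T cells. Zbp1, which binds Z-form nucleic acid and can trigger cell death, stood at 3.39 and 2.65 CPM in melanoma barcodes, 62.4 and 30.5 CPM in macrophages, 172 and 122 CPM in monocytes, and 63.6 and 56.0 CPM in T cells. Unlike Ifi204, it was no lower in T cells than in macrophages. The RNA sensors Ifih1 (MDA5) and Ddx58 (RIG-I) were less uneven. Ifih1 stood at 49.6 and 28.4 CPM in macrophages and 53.4 and 25.97 CPM in monocytes, while Ddx58 stood at 24.8 and 31.8 CPM in T cells, 15.9 and 12.6 CPM in macrophages and 6.75 and 6.91 CPM in melanoma barcodes.

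Of the signalling genes, Irf7, the transcription factor that amplifies type I interferon, stood at 101 and 87.8 CPM in monocytes, 50.1 and 38.4 CPM in macrophages, 26.3 and 13.6 CPM in T cells and 1.76 and 1.58 CPM in melanoma barcodes. This order held in both libraries. Oasl1, which is known to hold back translation of Irf7, had another order: 35.3 and 61.1 CPM in macrophages, 27.5 and 16.1 CPM in monocytes, 2.92 and 4.54 CPM in T cells and 0.509 and 0.824 CPM in melanoma barcodes. Stat2 and Usp18, which removes Isg15 from proteins and dampens receptor signalling, were low, at no more than 29.2 and 18.6 CPM in any of the 4 large classes.

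Macrophages were set against melanoma barcodes, the tumour cells they sat among. A gene counted as measured when the classes together held at least 50 of its UMIs in library 1 and in library 2, and as higher in a class when its CPM was at least 2 times the other's in both libraries. Of the 33 genes measured, 30 were higher in macrophages, beside 13.0% of all 11258 genes measured, and 0 were higher in melanoma, beside 20.3%. Not called were Ddx58, Isg20 and Irgm1, and not measured were Ifit3b, Oas3, Ifi44 and Gbp5. By role, 15 of 16 effectors, 8 of 9 GTPases, 3 of 4 sensors and 4 of 4 signalling genes were higher in macrophages. The median log2 ratio of the measured genes was 3.26 and 2.98, beside -0.42 and -0.35 over all genes measured. A gene low in melanoma passes the UMI minimum only through its macrophage level, so these shares describe the measured genes and not all 37. The same limit holds for the other class comparisons below, where a gene low in 1 class passes only through the other.

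The highest ratios were those of Ifi204, at 94.6 times (72.4 to 125) in library 1 and 88.9 times (67.4 to 119) in library 2. Oasl1 was 69.3 times (41.6 to 120) and 74.1 times (53.0 to 105) higher in macrophages. Oasl2, an oligoadenylate synthetase-like effector, was 28.8 and 33.2 times higher, and Irf7 28.5 and 24.3 times higher. The lowest ratios belonged to Isg20, an exonuclease of RNA, at 1.47 times (0.857 to 2.37) and 1.20 times (0.755 to 1.82). Irgm1, a regulator of the other immunity-related GTPases, was at 2.64 and 1.51 times, Ddx58 at 2.35 and 1.83 times and Bst2 at 2.56 and 2.16 times. Bst2 stood at 53.9 and 52.0 CPM in melanoma barcodes and at 138 and 112 CPM in macrophages.

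T cells were set against melanoma barcodes in the same way. Of 31 genes measured, 21 were higher in T cells, beside 10.5% of all 11164 genes measured, and 0 were higher in melanoma, beside 19.1%. By the mean log2 ratio over both libraries Gbp4 came first, at 17.4 times (12.7 to 23.6) and 47.7 times (28.9 to 77.1). Zbp1, at 18.8 and 21.1 times, came next and was the higher of these in library 1. Parp14, an ADP-ribosyltransferase, was 17.3 and 22.3 times higher and Trim30a, a ubiquitin ligase of the tripartite motif family, 16.1 and 16.8 times higher. The lowest 4 by the mean log2 ratio were Rsad2, Bst2, Cmpk2 and Ifit2. Rsad2 was at 0.533 times (0.265 to 0.961) and 0.337 times (0.0917 to 0.866) the melanoma level, from 11 and 4 UMIs in T cells. Ifit2 was at 0.963 and 0.987 times, Bst2 at 0.963 and 0.756 times, and Cmpk2, a mitochondrial nucleotide kinase next to Rsad2, had 2 and 0 UMIs in T cells. Other type I targets were higher in T cells: Ifit3 at 2.22 times (1.44 to 3.29) and 3.29 times (1.40 to 6.59), and Isg15 at 3.31 and 2.08 times, the second from 6 UMIs in T cells. With at least 1000 UMIs per barcode the mean log2 ratio of Ifit3 was -0.31. By role, 7 of 9 GTPases, 10 of 15 effectors, 3 of 4 sensors and 1 of 3 signalling genes measured were higher in T cells.

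Monocytes were compared with macrophages, the cells that monocytes can become in tissue. Of 24 genes measured, 7 were higher in monocytes, beside 5.40% of all 5375 genes measured, and 0 were higher in macrophages, beside 8.22%. The 7 were Zbp1, Irf7, Samhd1, Gbp2, Gbp3, Gbp5 and Ifi47, of which 4 are GTPases. The median log2 ratio of the 24 was 0.65 and 0.10, beside -0.09 and -0.16 over all genes. With monocytes defined without the markers Ly6c2 and Plac8, 4 of the 7 were higher and 1 gene was higher in macrophages.

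Samhd1, which hydrolyses the nucleotides that viruses need for DNA synthesis, stood at 699.5 CPM (864 UMIs) and 503 CPM (407 UMIs) in monocytes and at 168 CPM (329 UMIs) and 119 CPM (226 UMIs) in macrophages. Both monocyte values lay above both macrophage values, with ratios of 4.16 (3.66 to 4.73) and 4.23 (3.59 to 5.00). With every barcode thinned to 500 UMIs, Samhd1 was seen in 26.8% (23.4% to 30.4%) and 19.3% (16.6% to 22.4%) of monocytes, in 9.09% and 6.37% of macrophages, and in 0.955% and 0.809% of melanoma barcodes. Without thinning the shares were 57.1% and 32.5% of monocytes, 38.5% and 24.9% of macrophages and 24.4% and 17.2% of melanoma barcodes, which are far deeper.

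Gbp5, a guanylate-binding protein that promotes inflammasome assembly, was 2.65 times (1.95 to 3.61) and 8.02 times (4.14 to 16.8) higher in monocytes, the second from 41 against 12 UMIs. Zbp1 was 2.76 and 4.01 times higher, and Gbp2 2.10 times (1.89 to 2.33) and 4.65 times (3.92 to 5.54). The ratios of Gbp2 and Gbp5 were larger in library 2, where their macrophage levels were low. At the other end stood Ifit2, at 0.541 times (0.370 to 0.777) and 0.169 times (0.0664 to 0.363) the macrophage level. Oasl1 was at 0.780 and 0.263 times, Ifit1 at 0.791 and 0.327 times and Iigp1 at 0.441 times (0.301 to 0.633) and 0.503 times (0.215 to 1.05). These 4 lay below 1 in both libraries without passing 2 times in both. Rsad2 was near equal, at 0.826 and 0.889 times.

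**Figure D2:**
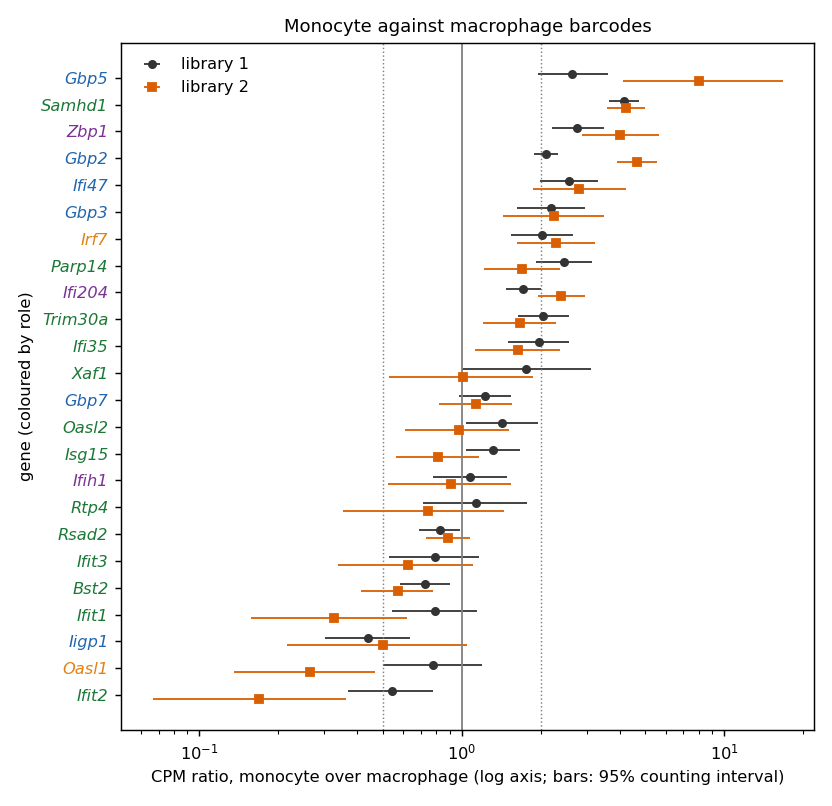
Ratio of CPM in monocyte over macrophage barcodes for the 24 genes measured, on a log axis, with 95% counting intervals; circles are library 1, squares library 2, the solid line marks 1 and dotted lines mark 0.5 and 2. Gbp5, Samhd1, Zbp1, Gbp2, Ifi47, Gbp3 and Irf7 lie above 2 in both libraries and Ifit2, Oasl1, Iigp1 and Ifit1 lie lowest.

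Neutrophils gave few UMIs per barcode (median 638 and 630), and their melanoma markers summed to 1427 and 1514 CPM. In library 1 they also carried 3 red cell genes at 15761 CPM, beside 106 CPM in library 2. The part of either in the neutrophil values was not tested. Of 12 genes measured, 6 were higher in monocytes (Zbp1, Ifi204, Samhd1, Parp14, Gbp2 and Gbp7), beside 18.4% of all 2286 genes measured, and 0 were higher in neutrophils, beside 3.59%. Several of these calls rest on few UMIs in the neutrophils of library 2: 0 of Zbp1, 1 of Parp14, 2 of Ifi204 and 2 of Gbp7. There Zbp1 was called against the floor of 3 counts. The library 2 ratios of Parp14 (4.64, 0.804 to 186) and Gbp7 (2.07, 0.549 to 17.5) had intervals that included 1. Neutrophils held 118394 and 56791 UMIs in all and monocytes 1235114 and 808726. All 12 genes passed the UMI minimum through monocytes alone, so a gene high only in neutrophils could hardly be counted. Effectors differed among themselves in library 1. Rsad2 stood at 144 CPM (17 UMIs) in neutrophils and 156 CPM in monocytes, and Trim30a at 160.5 CPM (19 UMIs) and 146 CPM. Samhd1 stood at 329 CPM in neutrophils and 699.5 CPM in monocytes, Parp14 at 42.2 and 141 CPM, Bst2 at 50.7 and 100.4 CPM and Ifi35 at 50.7 and 104 CPM. In library 2 Rsad2 had 2 and Trim30a 0 UMIs in neutrophils. The GTPases Gbp3, Gbp4, Gbp5, Irgm2, Igtp, Iigp1 and Ifi47 had 0 UMIs in neutrophils of both libraries. For Ifi47 the monocyte level of 134 CPM in library 1 was at least 5.27 times the level that 3 UMIs would give there, and in library 2 at least 1.31 times. Gbp2, at 689 and 495 CPM in monocytes, had 1 and 7 UMIs in neutrophils. In clusters in place of marker classes, 12 of 13 genes measured were higher in monocytes, with no share over all genes taken for clusters.

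Conventional dendritic cells (61 and 59 barcodes) were also compared with macrophages. They held 149778 and 124082 UMIs, beside 1954853 and 1899092 in macrophages, so genes reached the UMI minimum mainly through macrophages. Of 19 genes measured, 5 were higher in macrophages (Ifih1, Ifi204, Ifit1, Ifit2 and Rsad2), beside 12.8% of all 4441 genes measured, and 1, Ifi35, was higher in dendritic cells, beside 4.08%. Genes at large thus leaned toward macrophages too, and the share higher in dendritic cells was near that over all genes. Rsad2 was 7.05 times (2.73 to 26.01) and 4.40 times (2.00 to 12.1) higher in macrophages. Ifih1 had 1 UMI in the dendritic cells of each library, which puts it 7.43 times (1.30 to 296.5) and 3.53 times (0.607 to 142) higher in macrophages. Ifit1 had 0 and 1 UMIs and Oasl1 0 and 1 UMIs in dendritic cells. Ifi35, a leucine-zipper protein that binds Nmi, stood at 140 and 88.7 CPM in dendritic cells and was 2.66 times (1.58 to 4.28) and 2.31 times (1.10 to 4.37) higher. Samhd1 was at 2.02 and 1.90 times, Zbp1 at 1.28 and 2.64 times and Trim30a at 1.78 and 1.27 times the macrophage level, none past 2 times in both libraries. With clusters in place of marker classes 0 genes were higher in dendritic cells, with at least 1000 UMIs per barcode 2 were, and with means over barcodes 3 were higher in macrophages.

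Plasmacytoid dendritic cells, known for rapid production of type I interferon, had too few barcodes for a comparison. Bst2, a surface antigen by which mouse plasmacytoid cells are known, stood at 1736 CPM (114 UMIs) and 1397 CPM (43 UMIs) in them and at no more than 138 CPM in any other class. It was not among their markers here. Stat2 stood at 137 and 130 CPM (9 and 4 UMIs) and Irf7 at 76.2 and 130 CPM (5 and 4 UMIs), while Rsad2, Ifit1, Ifit3, Isg15 and Oasl2 had 0 UMIs in both libraries. At this depth 3 UMIs equal 45.7 and 97.5 CPM, so lower levels could not be seen.

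T cells were compared with monocytes for 13 genes. In both libraries 6 were higher in monocytes (Zbp1, Ifi204, Irf7, Rsad2, Samhd1 and Gbp2), beside 17.2% of all 3679 genes measured, and 0 were higher in T cells, beside 10.4%. Ifi204 was 34.1 times (18.8 to 68.9) and 79.3 times (21.7 to 659) higher in monocytes, and Rsad2 19.3 times (10.6 to 39.4) and 31.3 times (12.0 to 116). Gbp2 was 11.6 and 12.6 times higher and Samhd1 5.26 and 5.04 times higher. By contrast Gbp7 stood at 107 and 78.7 CPM in T cells and 112 and 72.9 CPM in monocytes, with ratios of T over monocyte of 0.955 (0.752 to 1.21) and 1.08 (0.728 to 1.59). Ifi35 was at 0.550 and 0.791 times, Ifi47 at 0.634 and 0.612 times and Bst2 at 0.517 and 0.612 times the monocyte level. With a minimum of 10 UMIs per gene in place of 50, 16 of 33 genes were higher in monocytes, with no share over all genes taken.

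NK cells shared enough depth with T cells for Samhd1 and Gbp7, and neither was called, beside 2.18% of all 1880 genes measured higher in NK cells and 6.38% higher in T cells. Gbp7 was at 1.02 times (0.627 to 1.59) and 0.692 times (0.138 to 2.14) the T cell level and Samhd1 at 0.896 times (0.565 to 1.37) and 0.364 times (0.0431 to 1.37). These intervals allow differences of 2 times in library 2. Zbp1, Trim30a, Parp14 and Ifi47 had 17 or 18 UMIs each in NK cells of library 1 (81.0 to 85.8 CPM), where Ifit1, Ifit2, Ifit3, Oasl2 and Mx1 had 0. At the depth of NK cells 3 UMIs equal 14.3 and 54.5 CPM, so lower levels could not be seen. In B cells, which held 85 and 9 UMIs of the 37 genes in all, Samhd1 gave 33 and 3 of them (268 and 210 CPM).

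The other genes of the pathway came from 4 lists. Of 10 interferon ligands, 1 had at least 50 UMIs: Ifng, at 92.8 CPM (127 UMIs) and 302 CPM (200 UMIs) in T cells, 38.1 and 36.3 CPM in NK cells and at most 2.11 CPM in the other classes. Ifnb1 had 13 and 8 UMIs in macrophages (6.65 and 4.21 CPM), 3 and 0 in monocytes and 0 in the other classes. In neutrophils and in dendritic, plasmacytoid, NK and B cells 3 UMIs equal 14.3 CPM or more in each library. A level like that of Ifnb1 in macrophages could not be seen there for any ligand. Of Ifna1, Ifna2, Ifna4 and Ifna5, 1 UMI of Ifna4 was found, in macrophages of library 2. Receptor genes set which cells can answer. Of 5 receptor genes measured, Ifnar1, Ifnar2 and Ifngr1 were higher in macrophages than in melanoma, beside 13.0% of all genes measured. Ifngr1 was higher in monocytes than in macrophages, beside 5.40% of all genes measured. Ifngr1, the ligand-binding chain for interferon gamma, stood at 21.0 and 16.5 CPM in melanoma barcodes, 116 and 75.3 CPM in macrophages, 351 and 287 CPM in monocytes, 650 and 420.5 CPM in T cells and 1749 and 1416 CPM in NK cells. Its partner chain Ifngr2 stood at 7.31 and 7.56 CPM in T cells and 0 UMIs in NK cells, beside 57.3 and 46.9 CPM in macrophages. In NK cells 3 UMIs equal 14.3 and 54.5 CPM, so a level like that of T cells could not be seen there.

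Of 12 signalling genes measured in monocytes against macrophages, 3 were higher in monocytes (Jak2, Irf1 and Socs3), beside 5.40% of all genes measured. None was lower, beside 8.22%. Of 24 further interferon targets in the matrix, 17 of the 21 measured were higher in macrophages than in melanoma, beside 13.0% of all genes measured. None was lower, beside 20.3%. In monocytes against macrophages, 2 of 17, Ly6e and Ifitm3, were higher, beside 5.40% of all genes measured. In T cells against monocytes, 1 of 15, Ccl5, a chemokine of activated T and NK cells, was higher in T cells, beside 10.4%. Cxcl9, Cxcl10, Cd274 and Ifitm3 were higher in monocytes, beside 17.2%. In dendritic cells against macrophages, 6 of 13 were higher in dendritic cells, beside 4.08% of all genes measured. They were Ccl5, Cd274, Psmb8, Psmb9, Tap1 and Sp100, which include immunoproteasome and peptide transporter genes.

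The libraries were then set side by side within a class, for genes with at least 50 UMIs over both. In macrophages, 8 of 30 genes measured were at least 2 times higher in library 1, beside 1.95% of all 6674 genes measured, and 0 were higher in library 2, beside 1.30%. The 8 were Zbp1 and 7 of the 9 GTPases measured (Gbp2, Gbp4, Gbp5, Irgm1, Igtp, Iigp1 and Ifi47), and 0 of 14 effectors were among them. Gbp4 stood at 38.4 CPM (75 UMIs) in library 1 and 3.69 CPM (7 UMIs) in library 2, a ratio of 10.4 (4.81 to 26.8). Gbp5 stood at 35.8 and 6.32 CPM, a ratio of 5.67 (3.05 to 11.5). Iigp1 stood at 71.6 and 22.1 CPM, a ratio of 3.24 (2.28 to 4.69), and Gbp2 at 328 and 106 CPM, a ratio of 3.09 (2.63 to 3.63). In thinned macrophages the variance over mean of the GTPases was 3.70 and 2.50, where counting noise alone gives 1, so these intervals are too narrow for the spread between cells. In contrast Rsad2 stood at 188 and 213 CPM, a ratio of 0.885 (0.766 to 1.02). The variance over mean of the effectors in thinned macrophages was 11.3 and 11.9, so the intervals of effectors are the less reliable. Ifit1 stood at 46.0 and 41.6 CPM (ratio 1.11), Xaf1, an inhibitor of an anti-apoptotic protein, at 13.3 and 19.5 CPM (ratio 0.683), and Oasl1 at 35.3 and 61.1 CPM, a ratio of 0.578 (0.423 to 0.785).

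The same macrophages held further interferon targets at higher levels in library 1. Of 22 other targets measured, 6 were at least 2 times higher there (Cxcl9, Cxcl10, Tap2, Tapbp, Nlrc5 and Ciita), beside 1.95% of all genes measured. None was higher in library 2, beside 1.30%. Cxcl10, a chemokine that draws T cells, stood at 338 and 81.1 CPM, a ratio of 4.17 (3.49 to 5.00). Ciita, the switch for class II antigen presentation genes, stood at 22.5 and 5.79 CPM. Ifng in T cells lay the other way, at 92.8 CPM in library 1 and 302 CPM in library 2, a ratio of 0.307 (0.244 to 0.385). The share of T cell barcodes with an Ifng UMI was close, at 6.87% (51 barcodes) and 7.32% (32 barcodes). The 200 Ifng UMIs of library 2 thus came from 32 barcodes, and the interval does not cover the spread between cells. T cells made up 14.3% of kept barcodes in library 1 and 5.46% in library 2. Red cell genes stood at 1111 and 47.4 CPM in these macrophages, and their part in the result was not tested. With clusters in place of marker classes, 4 of 28 genes were higher in library 1 in macrophages, all 4 among the 8.

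In melanoma barcodes 5 of 34 genes measured were at least 2 times higher in library 1 (Ifit3, Gbp2, Gbp4, Igtp and Iigp1), beside 0.530% of all 12271 genes measured, and 0 were higher in library 2, beside 1.66%. Gbp4 stood at 2.90 and 0.856 CPM, a ratio of 3.39 (2.43 to 4.78). In thinned melanoma barcodes the variance over mean of the GTPases was 12.2 and 5.35, so this interval is too narrow for the spread between cells. Ifit3 stood at 8.89 and 3.68 CPM (ratio 2.42), Iigp1 at 8.79 and 3.87 CPM (ratio 2.27) and Gbp2 at 16.2 and 7.83 CPM (ratio 2.06). Rsad2 (ratio 0.841), Xaf1 (0.691), Isg20 (0.621) and Oasl1 (0.618) lay below 1. With the copied barcodes kept, 3 of the 5 were counted, and with means over barcodes 1 was.

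In monocytes 3 of 26 genes measured were at least 2 times higher in library 1 (Ifih1, Ifit1 and Isg15), beside 2.40% of all 4415 genes measured, and 0 were higher in library 2, beside 1.34%. Ifit1 stood at 36.4 and 13.6 CPM, a ratio of 2.68 (1.36 to 5.74). Ifih1 had a ratio of 2.06, Isg15, a ubiquitin-like protein linked to other proteins, 2.04, and Ifi47 1.93. Ifi204 (1.14), Irgm1 (1.04), Oas3 (1.03) and Rsad2 (0.822) lay nearest to or below 1. None of the 8 GTPases measured in monocytes passed 2 times, but their ratios all lay above 1, from 1.04 for Irgm1 to 1.93 for Ifi47. Some had intervals that reached past 2, such as Gbp4 at 1.895 (1.11 to 3.38), Gbp5 at 1.87 (1.30 to 2.74) and Ifi47 (1.42 to 2.66). The intervals of Irgm1 and Igtp included 1. The count of 3 genes higher in library 1 varied with the processing, from 1 with melanoma RNA subtracted to 12 of 32 with clusters in place of marker classes.

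In T cells 2 of 14 genes measured were at least 2 times higher in library 1, Gbp3 (ratio 2.17, 1.21 to 4.202) and Ifi47 (ratio 2.00, 1.32 to 3.14), beside 2.52% of all 4601 genes measured, and 0 were higher in library 2, beside 1.17%. Igtp was at 1.93 times and Gbp2 at 1.51 times. Ifi35 (1.14), Zbp1 (1.14), Parp14 (0.813) and Ddx58 (0.782) had ratios whose intervals included 1. Median log2 ratios of library 1 over library 2 were 0.32 in melanoma barcodes, 0.43 in macrophages, 0.72 in monocytes and 0.38 in T cells over the measured genes of the set, and between 7.0e-05 and 0.09 over all genes measured.

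**Figure D3:**
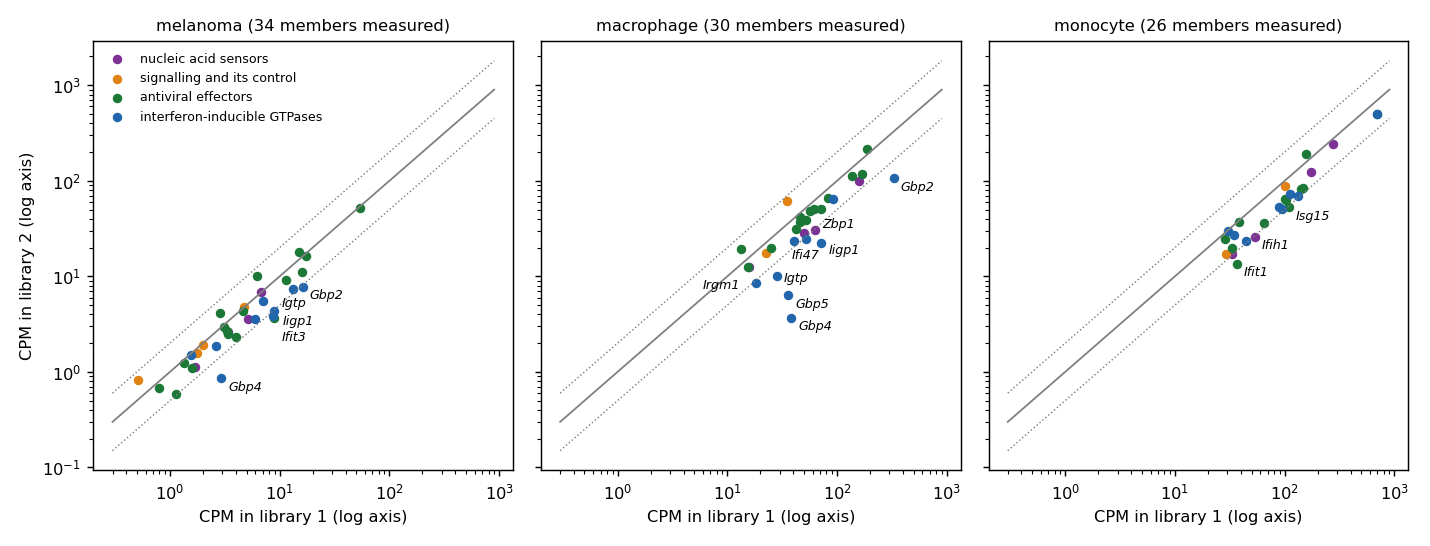
CPM of each measured gene in library 1 (x) and library 2 (y) within melanoma, macrophage and monocyte barcodes, on log axes, coloured by role; each point sets a gene beside itself, the solid line marks equal levels and dotted lines a 2 times difference. Named genes are at least 2 times higher in library 1: 5 in melanoma, 8 in macrophages, of which 7 are GTPases, and 3 in monocytes.

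Within a class the genes were unevenly spread over barcodes. To see this free of depth, macrophages were thinned to 2000 UMIs, monocytes to 1000 and melanoma barcodes to 5000, leaving out shallower barcodes, and the barcodes were split by whether they held a UMI of 1 member gene. These splits were chosen after the data were seen, and barcodes of a library are not replicates. In macrophages, 38 of 362 barcodes in library 1 and 35 of 416 in library 2 held an Rsad2 UMI. Those barcodes held 111 of the 143 UMIs of the 4 Ifit genes in library 1 and 105 of the 116 in library 2. The Ifit level was 29.6 times (19.8 to 45.3) and 104 times (55.8 to 214) that of the other macrophages. The effectors had a variance over mean of 11.3 and 11.9 here, with up to 49 and 63 UMIs in 1 barcode. Intervals of the member genes in these splits cover counting error only and are too narrow for that spread. The GTPases were far less tied to Rsad2, at 1.30 times (0.984 to 1.69) and 2.05 times (1.39 to 2.95). The macrophage markers stood at 0.874 and 0.694 times, the white blood cell markers at 0.919 and 0.918 times and the melanoma markers at 1.26 and 1.01 times.

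Monocytes showed the same split. The 33 of 578 and 31 of 388 monocytes with an Rsad2 UMI held the Ifit genes at 57.0 times (34.2 to 98.98) and 32.6 times (12.3 to 101) the level of the others, and the GTPases at 1.90 and 1.80 times. Split by Gbp2 instead, macrophages with a Gbp2 UMI (100 and 45 barcodes) held the other GTPases at 3.77 times (2.95 to 4.83) and 4.21 times (2.92 to 5.997), the Ifit genes at 1.69 and 1.93 times and 8 antigen presentation genes at 1.84 and 1.60 times. Monocytes with a Gbp2 UMI (157 and 84 barcodes) held the other GTPases at 3.72 and 4.60 times and the Ifit genes at 2.51 times (1.61 to 3.88) and 0.543 times (0.103 to 1.83). In these barcodes the Ifit genes thus followed Rsad2 and the GTPases followed Gbp2 more closely than the reverse. The difference between these ratios was not tested.

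In melanoma barcodes the GTPases were concentrated in few. With 5000 UMIs per barcode, 87.9% and 90.2% held no GTPase UMI, while the 5% of barcodes with the most held 77.9% and 75.1% of all GTPase UMIs, with up to 53 and 27 in 1 barcode. Such shares were not particular to the GTPases. The sensors had no UMI in 93.5% and 93.1% of these barcodes and the signalling genes in 96.4% and 95.4%. The top 5% held 80.5% and 75.5% of sensor UMIs and 100% of signalling UMIs. The variance over mean of the GTPases was 12.2 and 5.35, where 1 is the value of counting noise alone. It was 3.39 and 2.26 for the effectors, 1.35 and 1.17 for the sensors and 1.72 and 1.33 for the signalling genes. Iigp1 was seen in 29 of 1988 and 50 of 4711 melanoma barcodes. Those held the other 9 GTPases at 41.6 times (34.9 to 49.5) and 38.5 times (32.9 to 44.8) the level of the remaining melanoma barcodes, the Ifit genes at 12.4 and 11.4 times, and antigen presentation genes at 5.89 and 4.17 times. Their melanoma markers stood at 1.07 (1.02 to 1.12) and 1.05 times, their white blood cell markers at 1.86 times (1.03 to 3.09) and 1.62 times (1.01 to 2.46), and their macrophage markers at 2.86 and 0.907 times. A split by Igtp, seen in 46 and 70 melanoma barcodes, gave the other GTPases at 40.6 and 28.4 times, with white blood cell markers at 0.611 and 1.15 times and macrophage markers at 0.463 and 0.824 times. Split by Rsad2, seen in 94 and 329 melanoma barcodes, the Ifit genes stood at 7.84 and 4.79 times and the GTPases at 4.63 and 2.57 times. In that split macrophage markers stood at 1.15 times (0.697 to 1.81) and 1.91 times (1.59 to 2.28) and white blood cell markers at 1.14 times (0.760 to 1.64) and 1.23 times (1.003 to 1.499), and their part in the result was not tested.

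**Figure D4:**
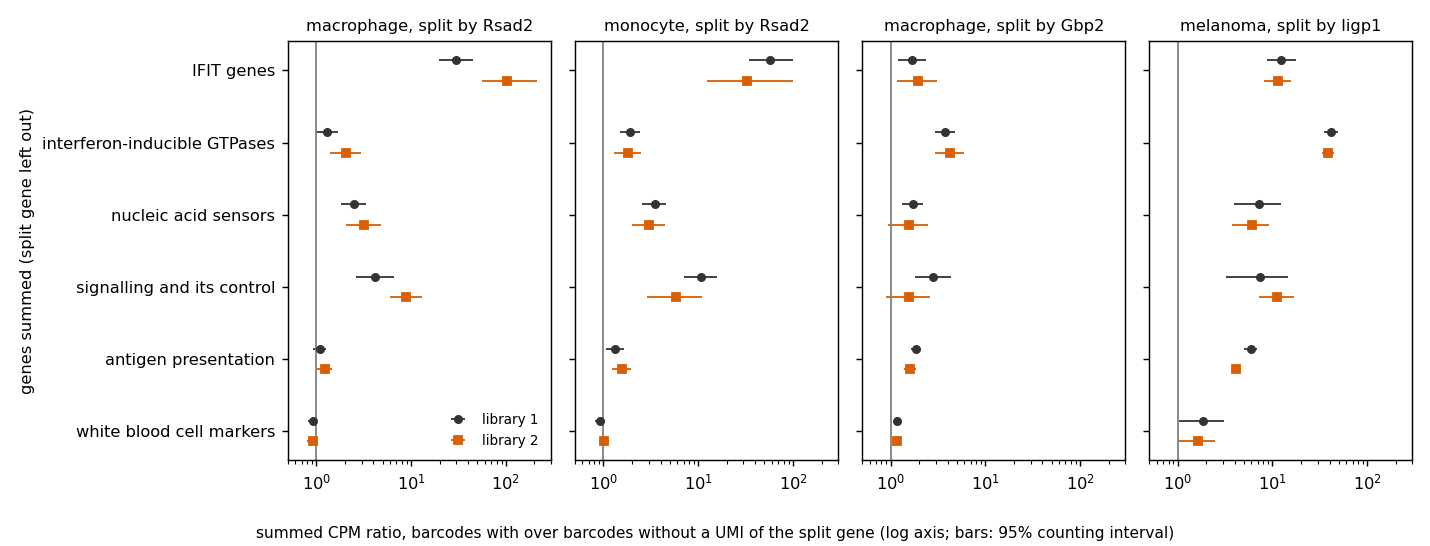
Summed CPM of 6 gene groups in barcodes with a UMI of the split gene over barcodes without one, after thinning, on a log axis with 95% counting intervals; circles are library 1 and squares library 2. With the split by Rsad2 the Ifit genes lie at 29.6 and 104 times in macrophages while the GTPases lie at 1.30 and 2.05, and with the split by Iigp1 in melanoma barcodes the GTPases lie at 41.6 and 38.5 while white blood cell markers lie at 1.86 and 1.62.

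Some values rest on few barcodes or on genes that are hard to tell apart. In melanoma barcodes of library 1, 1 barcode held 45 of the 158 Ifit1 UMIs, and in macrophages of library 1, 1 barcode held 22 of the 82 Ifit3 UMIs and 1 barcode 9 of the 30 Mx1 UMIs. Ifit3b, a close copy of Ifit3 on chromosome 19, had 45 and 37 UMIs in melanoma barcodes and 7 and 2 in macrophages, and the sources used here do not say how reads shared by near-identical copies were counted. In the GENCODE vM21 annotation, exons of Igtp and Irgm2 overlap on the same strand, as do those of Gbp4 with Gbp8 and Gbp9 and those of Ifi47 with Olfr56, so the split of reads between these neighbours is uncertain. Ifi44 had 16 UMIs over all classes and both libraries, and no pattern is read from it.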

How the data were processed

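Single-cell RNA was counted in 2 droplet 3′ libraries, 1 per genotype. The deposited matrix holds whole-number UMI counts of 31053 genes in 18252 barcodes (33700981 entries). The authors made these counts with Cell Ranger on mm10, per the submitters' processing notes, and the matrix names software version 3.0.2, per the file headers. Library totals were 49129318 and 73507228 UMIs. No batch, replicate or genotype is tied to the barcode endings, so nothing was tested.

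Barcodes needed 500 or more UMIs, 200 or more genes and no more than 10% mitochondrial UMIs, and were left out where the same barcode sequence held over 10 times their UMIs in the other library. A barcode took a class when its marker UMIs per 10000, divided by a level set for that class (melanoma 40, macrophage 20, monocyte 15, neutrophil 60, dendritic 4, plasmacytoid 8, T 10, NK 5, B 8), reached at least 1. Where the next class also reached 1, the higher value had to be at least 2 times the lower. A next class below 1 did not count. Barcodes with over 5% immunoglobulin UMIs outside B cells were left unclassed. The levels were set after the data were seen, and no member is a marker. No doublet caller was used, because Scrublet marked too few barcodes to have worked.

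Within each library the UMIs of a class were added up and scaled to CPM. Levels have exact Poisson intervals, ratios exact conditional binomial intervals and shares exact Clopper-Pearson intervals, at 95%, and all cover counting error only. A ratio of at least 2 in the same direction in both libraries was called, given at least 50 UMIs per library over both classes and at least 50 barcodes per class. Within a class, the libraries were set side by side with at least 50 UMIs over both. A count of 0 was replaced by a floor of 3 counts, and 35 symbols of more than 1 gene were left out. The comparison script was checked on simulated counts that held counting noise alone. That check covers the arithmetic and not the spread between cells. Python 3.11.15, scipy 1.17.1, scanpy 1.11.5 and leidenalg 0.10.2 were used. Alternatives changed the copies, the UMI minima, the class rule, the doublets, the averaging, the clustering (Leiden clusters made without the members), the free melanoma RNA and the monocyte markers. Full values were given for the 4 highest and 4 lowest members of each comparison and for members highest in different classes, and further members and pathway genes were named after their values were seen. Some results of the signalling list are not reported here. The members and lists were chosen with earlier results of these data known.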

Additional observations from a re-analysis of the deposited data

Results flagged for a closer look

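Barcodes outside the 9 classes also held UMIs of the 37 genes, above the level that a count of 0 allows. Barcodes of no class summed to 765.8 CPM (714.6 to 819.8; 216 barcodes) in library 1 and 324.7 CPM (303.9 to 346.6; 447 barcodes) in library 2. The other set held barcodes with markers of more than 1 class and barcodes left unclassed for their immunoglobulin UMIs. It summed to 1730 CPM (1653 to 1810, 332 barcodes) in library 1 and 835.9 CPM (770.7 to 905.2, 252 barcodes) in library 2. These values lie between those of melanoma barcodes (249 and 204 CPM) and monocytes (3762 and 2613 CPM). Library 1 was the higher in both sets, as it was in the 4 large classes.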

How the results depend on the processing

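Of 186 counts of called genes under 9 alternatives, 163 stayed within 1.5 times the reported count and 23 did not. Where no construction shows it, the cause was not tested. Shares over all genes were not taken under the alternatives, so their counts stand without that background. With copied barcodes kept, 3 genes were higher in library 1 in melanoma. With at least 1000 UMIs per barcode, 2 genes were higher in dendritic cells than macrophages and 6 in library 1 in monocytes. With the highest 6% of Scrublet scores left out, 1 was higher in macrophages than monocytes and 1 in library 1 in T cells. With means over barcodes, 2 were higher in macrophages than monocytes, 3 in macrophages than dendritic cells, 1 in library 1 in melanoma and 1 in library 1 in T cells. With Leiden clusters, 12 were higher in monocytes than neutrophils, 0 in dendritic cells than macrophages, and 4, 12 and 4 in library 1 in macrophages, monocytes and T cells. With at least 10 UMIs per gene, which tests more genes, 4 were higher in dendritic cells than macrophages, 16 in monocytes than T cells, and 8 and 8 in library 1 in monocytes and T cells. With melanoma RNA subtracted, 1 was higher in macrophages than monocytes, and 1 and 1 in library 1 in monocytes and T cells. Without Ly6c2 and Plac8 as monocyte markers, 4 were higher in monocytes than macrophages and 1 in macrophages. The stricter class rule moved 0 of 18 counts. Values of single genes moved beyond their counting interval in 10 of 238 cases with means over barcodes, 8 of 238 with Leiden clusters and 1 of 238 with Scrublet scores. Ifit3 in T cells against melanoma reversed with at least 1000 UMIs per barcode, to a mean log2 ratio of -0.31. Some comparisons with fewer than 50 barcodes left in a class gave no value under the stricter rule or the 1000 UMI minimum. Counts under 50 UMIs limit neutrophils, dendritic, NK and B cells most. No paired analysis was possible because each genotype has 1 library and the result comes from no test.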
